A study of Mus musculus with 6 samples.

Results

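10 genes that mark adipose progenitor and stromal cells were described in epididymal white adipose tissue (eWAT) of mice with cancer-associated cachexia (CAC). They were taken by name from a list of 55039 annotated genes, before any filter on counts, and comprised the PDGF receptors Pdgfra and Pdgfrb, the progenitor surface markers Dpp4, Pi16, Cd55, Ly6a and Icam1, and the matrix genes Dcn, Lum and Fn1. All 10 passed the filter on low counts that left 17296 genes for testing, so no member was lost. The CAC group was male C57BL/6 mice that had been injected under the skin with Lewis lung carcinoma (LLC) cells, a mouse lung tumour line, and the CONT group was male C57BL/6 mice injected with PBS alone. Mice of both groups were aged 6 to 7 weeks when assigned, and eWAT was taken 28 days after injection. Each group had 3 libraries, named here CONT1 to CONT3 and CAC1 to CAC3, each from a separate mouse. The sources name no engineered allele in either group, and the CONT mice received no cells of any kind, so an effect of the tumour could not be told apart from an effect of injecting cells.

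White adipose tissue holds, beside its lipid-filled adipocytes, a stromal fraction of fibroblast-like cells from which new adipocytes arise. Most of these cells carry PDGFRA, the receptor for the alpha type of platelet-derived growth factor (PDGF), whereas PDGFRB is shared with the mural cells that wrap small vessels. The progenitors are commonly placed along a path from an interstitial state rich in DPP4, PI16 and CD55 to a committed preadipocyte state rich in ICAM1, and Ly6a (also called Sca-1) has long been used to sort them. Decorin (Dcn), lumican (Lum) and fibronectin (Fn1) are products of the same stromal cells that build the matrix around adipocytes. In whole tissue, a lower level of such a gene can reflect fewer cells or less RNA per cell, and these could not be told apart here.

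The libraries held 15713794 to 20638492 counted reads in CONT and 22829269 to 25926425 in CAC, so that 1 CPM (a count scaled to library size, with factors from the trimmed mean of M-values) stood for 11.2 to 26.5 reads. CONT1 stood apart from the other libraries. Its mitochondrially encoded genes took 30.2% of reads (95% Wilson interval 30.1% to 30.2%), against 3.89% to 5.04% in the remaining 5, and the standard deviation of its log2 ratio over 5779 well-covered genes was 0.832 against CONT2 and 0.872 against CONT3, whereas CONT2 and CONT3 differed by 0.297. Short genes, by the gene length in the deposited table, were high and long genes low in CONT1: the median log2 ratio to CONT2 and CONT3 was 0.29 in the shortest of 4 equal bins of genes (54 to 2213 bases) and -0.48 in the longest (6139 to 123179 bases). CONT3 carried epididymal transcripts. The summed level of 7 epididymis markers was 226.0, 3.46 and 9959 CPM in CONT1 to CONT3 and 0.12 to 0.94 CPM in CAC, and Gpx5, an enzyme secreted by the epididymis, reached 5354 CPM in CONT3. The part of these library differences in the results was not tested, and fits with 1 library left out are given for the members, for the lists without CONT1, and for several of the other named genes.

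The tissue label fitted its markers. Adipoq, the adipocyte hormone adiponectin, lay between 1692 and 3372 CPM in all 6 libraries. On a per-length scale (FPKM, fragments scaled to gene length and library size, averaged over the 6 libraries), Dcn was the most abundant of the 10 genes at 150 (range 107 to 208), followed by Ly6a at 101 (73.8 to 143). Fn1 averaged 23.5 FPKM (6.64 to 42.1), Lum 15.0 (4.88 to 22.5) and Pdgfrb 14.4 (12.2 to 17.4). The lowest group comprised Pdgfra at 6.57 FPKM, Icam1 at 6.45, Pi16 at 5.80, Cd55 at 4.35 and Dpp4 at 3.17. In that order only 2 pairs of neighbours had ranges that did not meet, Ly6a above Fn1 and Pdgfrb above Pdgfra; every other gene overlapped the next one down.

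The main comparison asked whether the levels of these genes differed between CAC and CONT eWAT. None of the 10 passed an adjusted p of 0.05 in edgeR's quasi-likelihood test, where the background was 0% (0 of 17296 genes, smallest adjusted p 0.127). At an unadjusted p under 0.05, 2 of the 10 differed, Pi16 and Lum, both lower in CAC, against a background of 13.3% of all genes tested and 6.95% for lower genes; 0 were higher, where the background was 6.31%. DESeq2 called 1 of the 10, Pi16, at an adjusted p of 0.05, against 4.97% of genes (917 of 18444). For 3 of the 10 the ranges of CAC and CONT were separate, with Pi16 and Lum below and Dcn above, where 22.5% of all genes did not overlap (10.7% below and 11.8% above). The log2 fold change was negative for 7 genes and positive for 3, with a median of -0.29 against -0.06 over all genes tested, of which 54.1% were negative. None of these counts lay more than 1 or 2 genes from its background share of 10 genes.

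These counts depended on single libraries. Without CONT1, 9 of the 10 fold changes were negative (52.5% of all genes), with a median of -0.52 (all genes -0.03). In this fit 4 genes had an unadjusted p under 0.05 (Pi16, Lum and Cd55 lower, Dcn higher) against 15.6% of genes, or 8.28% for lower genes. The groups were separate for 5 members, against 37.7% of genes: Dpp4, Pi16, Cd55 and Lum lay below (19.6% of genes) and Dcn above (18.1%). With another library left out, they were separate for 4 without CONT3 (28.5% of genes) and without CAC1 (33.4%), and for 3 without CONT2 (28.6%), without CAC2 (26.6%) and without CAC3 (30.2%). Without CONT1, again 0 passed an adjusted p of 0.05 in edgeR's test, while DESeq2 called 2, Pi16 and Dcn, against 11.9% of genes. DESeq2 called 1, Pi16, without CONT3 and without CAC2, where 888 and 691 of all genes passed. It called 0 members without CONT2 (3.56% of genes), without CAC1 (7.9%) and without CAC3 (3.53%). Without CONT3 the count at an unadjusted p under 0.05 was 2, Pi16 and Ly6a rather than Pi16 and Lum, against 9.25% of genes. It was 1, Pi16, without CONT2 (9.3% of genes) and without CAC1 (11.7%).

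**Figure D1:**
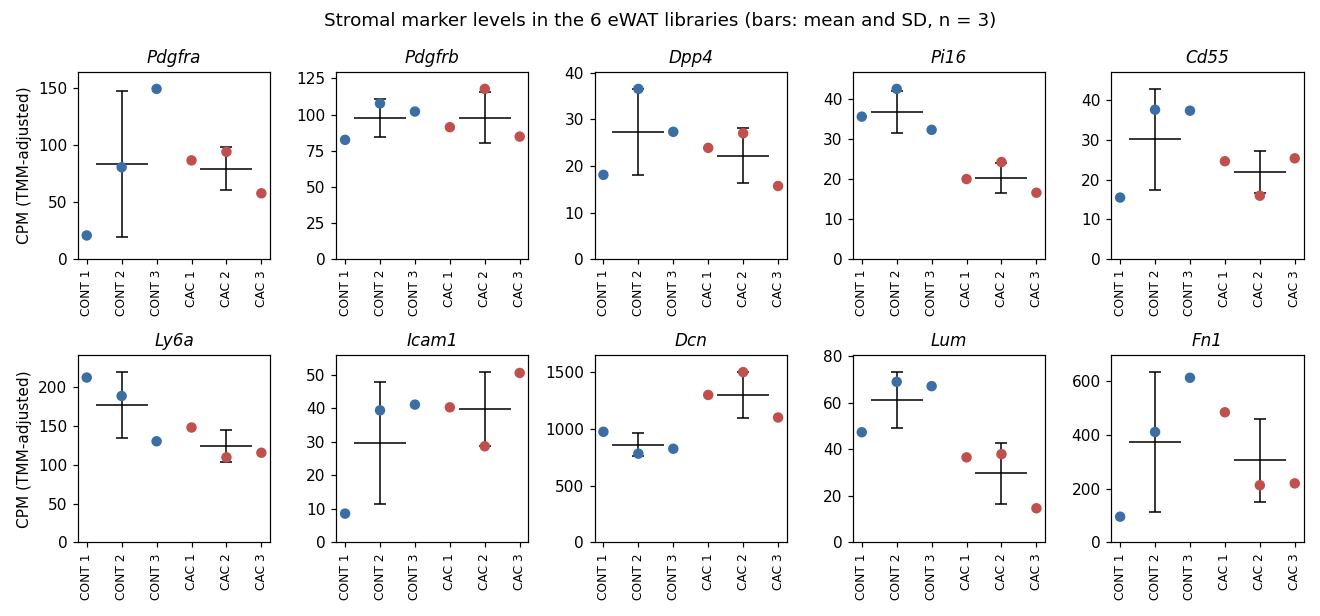
Level of each of the 10 genes in every library, in CPM on linear axes that start at 0 and differ between genes. Points are single libraries, CONT in blue and CAC in red, and the lines and bars give the mean and SD of each group (n = 3); Pi16 and Lum lay lower and Dcn higher in all CAC libraries than in any CONT library, and the low CONT point of Pdgfra (20.7 CPM), Fn1 (95.6 CPM) and Icam1 (8.56 CPM) is CONT1.

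**Figure D2:**
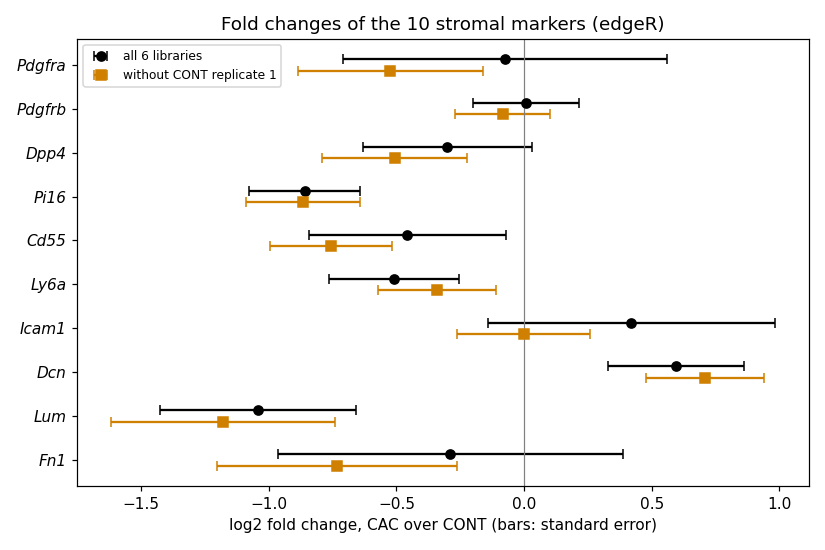
Log2 fold change of CAC against CONT for each of the 10 genes, with all 6 libraries (black circles) and without CONT1 (orange squares), with bars of 1 standard error from edgeR. Pi16 (-0.86 and -0.87) hardly moves between the fits, whereas Pdgfra (-0.07 and -0.52), Icam1 (0.42 and -0.0022) and Fn1 (-0.29 and -0.73) shift.

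Of the surface markers of interstitial progenitors, Pi16 had the smallest p. Pi16 (peptidase inhibitor 16, a secreted or membrane-anchored member of the CAP family, ENSMUSG00000024011, GRCm38 chr17:29318877-29329413, plus strand) measured 35.7, 42.6 and 32.4 CPM in CONT1 to CONT3 and 20.0, 24.3 and 16.6 CPM in CAC1 to CAC3. Every CAC library lay below every CONT library. The means were 36.9 ± 5.23 CPM in CONT and 20.3 ± 3.85 CPM in CAC (SD, n = 3 each), a log2 fold change of -0.86 (standard error 0.22, 95% interval -1.38 to -0.34, edgeR adjusted p = 0.250). DESeq2 gave -0.83 with an adjusted p of 0.0302, which was 0.164 without CONT2, 0.0805 without CAC1 and 0.118 without CAC3. The difference was as large without CONT1 (-0.87), and CONT1 held Pi16 at 95.1% of the mean of CONT2 and CONT3. Across all 25 alternatives the log2 fold change of Pi16 stayed between -0.995 and -0.699.

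Dpp4 (dipeptidyl peptidase 4, a cell-surface protease that trims chemokines and incretins, chr2:62330073-62412231, minus strand) was the least abundant of the 10 per length. It measured 18.1, 36.6 and 27.3 CPM in CONT and 23.9, 27.0 and 15.7 CPM in CAC. The groups overlapped, with CONT1 below CAC1 and CAC2. The log2 fold change was -0.30 (standard error 0.33, 95% interval -1.09 to 0.49, adjusted p = 0.720). Without CONT1 the groups no longer overlapped and the value was -0.51 (adjusted p = 0.464), whereas it was -0.03 without CONT2 and -0.09 without CAC3.

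Cd55 (decay-accelerating factor, which shields cells from complement, chr1:130439027-130462744, minus strand) showed the same arrangement. Its levels were 15.5, 37.7 and 37.4 CPM in CONT and 24.7, 16.0 and 25.4 CPM in CAC, so that CONT1 alone lay below the CAC libraries. The log2 fold change was -0.46 (standard error 0.39, adjusted p = 0.624) with all libraries and -0.76 (standard error 0.24, adjusted p = 0.265) without CONT1, where the groups were separate, but -0.27 without CONT2, -0.26 without CONT3 and -0.26 without CAC2. A near-identical copy, Cd55b, was listed at 7.4 CPM in CONT2 and 9.8 CPM in CAC3 and at no more than 0.121 CPM in the other libraries, so the split of reads between the 2 copies in those libraries is uncertain.

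Ly6a (stem cell antigen 1, a lipid-anchored surface protein, chr15:74994877-74998031, minus strand) was also lower on average in CAC. It measured 212, 189 and 130 CPM in CONT and 148, 110 and 115 CPM in CAC, and CAC1 lay above CONT3. The means were 177 ± 42.3 and 124 ± 20.7 CPM (SD, n = 3 each) and the log2 fold change was -0.51 (standard error 0.25, adjusted p = 0.429). Ly6a is the shortest of the 10 by that gene length (1205 bases) and stood highest in CONT1; without that library the value was -0.34, with an offset for gene length it was also -0.34, and without CONT3 it was -0.68. Endothelium expresses Ly6a as well, and the summed level of 8 endothelial markers was 3062 CPM in CONT1 against 1258 to 2026 CPM elsewhere. CONT1 was highest in both. However, the endothelial sum was lowest in CONT2 (1258 CPM), where Ly6a was at 189 CPM, and 2026 CPM in CAC3, where Ly6a was at 115 CPM. The part of endothelium in the Ly6a level was not tested. Other genes of the Ly6 family, several of which are close in sequence, did not share 1 direction. Of 6 tested, 1 was higher and 2 lower at an unadjusted p under 0.05 (6.31% and 6.95% of all genes). Their median log2 fold change was 0.15, and without CONT1 the counts were the same and the median was 0.25. Ly6e measured 484, 676 and 412 CPM in CONT and 243, 268 and 273 CPM in CAC (log2 fold change -1.004, adjusted p = 0.261), and Ly6h gave -1.65. Ly6g, a neutrophil antigen, was at most 0.136 CPM in CONT and 0.657 to 3.25 CPM in CAC.

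The 4 surface markers of interstitial progenitors had negative log2 fold changes, with a median of -0.48, where 54.1% of all genes were negative. Of the 4, 1 was lower at an unadjusted p under 0.05, against 6.95% of all genes; without CONT1, 2 were lower, against 8.28%, and the median was -0.63. Promoters of Pi16, Dpp4 and Cd55 are printed as examples of the regulatory sequence at the start of 3 markers with negative fold changes. Each covers 250 bases before and 50 bases after the RefSeq start site in GRCm38.p6, 5′ to 3′ on the gene's strand, and the capitals mark the motifs that were found. Pi16 lies at chr17:29318632-29318931 (plus strand), Dpp4 at chr2:62412182-62412481 (minus strand) and Cd55 at chr1:130462695-130462994 (minus strand).
Pi16: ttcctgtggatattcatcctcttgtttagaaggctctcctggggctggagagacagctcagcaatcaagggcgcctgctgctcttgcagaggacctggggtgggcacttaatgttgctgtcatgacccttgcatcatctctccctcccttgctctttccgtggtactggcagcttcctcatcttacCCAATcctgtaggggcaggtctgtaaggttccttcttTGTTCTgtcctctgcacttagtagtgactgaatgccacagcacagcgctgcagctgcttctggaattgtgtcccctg
Dpp4: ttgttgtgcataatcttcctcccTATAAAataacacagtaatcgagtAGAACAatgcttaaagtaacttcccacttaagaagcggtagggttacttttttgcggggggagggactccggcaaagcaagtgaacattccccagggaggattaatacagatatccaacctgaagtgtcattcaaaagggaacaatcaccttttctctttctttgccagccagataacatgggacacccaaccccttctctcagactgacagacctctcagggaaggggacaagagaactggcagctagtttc
Cd55: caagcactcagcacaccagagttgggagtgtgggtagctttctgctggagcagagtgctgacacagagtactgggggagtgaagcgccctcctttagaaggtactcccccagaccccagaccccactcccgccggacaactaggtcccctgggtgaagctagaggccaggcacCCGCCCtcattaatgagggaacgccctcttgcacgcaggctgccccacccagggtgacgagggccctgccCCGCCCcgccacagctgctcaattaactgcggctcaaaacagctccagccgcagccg
The search covered both strands for 5 motifs, and no match in these 3 promoters overlapped another. Of 32851 promoters of this length, 13.6% hold TATAAA (the TATA box), 37.4% hold CCAAT (the CCAAT box), 35.7% hold GGGCGG (the GC box), 19.0% hold AGAACA (a half-site of the glucocorticoid receptor) and 4.51% hold the kappaB consensus. Pi16 held the CCAAT box and the receptor half-site, the latter as its reverse complement TGTTCT. Dpp4 held the TATA box letters and the half-site, and Cd55 held the GC box in 2 places as its reverse complement CCGCCC. A match is a run of letters and not a known site of binding. GC content was 53.3% for Pi16, 45.3% for Dpp4 and 63.3% for Cd55. Of the other members, Pdgfra and Icam1 had an entry, and Icam1 held the TATA box and GC box letters.

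Other genes of the interstitial progenitor state were described from a list, which like all lists here was chosen with earlier results of these data known. For the counts of every list, the share over all genes at an unadjusted p under 0.05 was 6.95% lower and 6.31% higher. Without CONT1 it was 8.28% lower and 15.6% in either direction. Of 12 such genes 9 were tested, and all 9 had a negative log2 fold change, with a median of -0.73 (54.1% negative over all genes); 4 were lower at an unadjusted p under 0.05 (6.95% of all genes) and 0 higher, and 5 were lower without CONT1. Dact2, a regulator of Wnt and TGF-beta signalling, measured 4.37, 12.3 and 22.5 CPM in CONT and 1.44, 2.30 and 1.40 CPM in CAC (log2 fold change -2.93, adjusted p = 0.228). Cd248 (endosialin, a stromal cell-surface glycoprotein) gave a log2 fold change of -1.91 (adjusted p = 0.308) and Sema3c, a secreted semaphorin, -0.94 (adjusted p = 0.319). Cd248 was lowest in CAC3, at 4.08 CPM, against 24.8 to 71.0 CPM in CONT. Relatives of the markers by protein family were counted as well. Among 6 DPP4-like peptidases 0 passed an unadjusted p of 0.05 (median 0.15; Dpp8 0.61, Dpp7 -0.52, Fap -0.43), with 1 higher and a median of 0.04 without CONT1, where Dpp8 was at 0.38. Among 5 CAP domain genes beside Pi16 0 passed (median 0.24; Crispld2 0.54, Crispld1 -0.95, Pi15 -0.39), and without CONT1 1 was lower and the median was -0.13. Fap ran from -0.78 without CAC1 to -0.23 without CAC3, Crispld1 was at -0.55 without CONT3 and Pi15 at 0.06 without CAC1.

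Icam1 (intercellular adhesion molecule 1, a ligand of leukocyte integrins and the marker of committed preadipocytes, chr9:21015985-21028817, plus strand) measured 8.56, 39.3 and 41.0 CPM in CONT and 40.2, 28.6 and 50.5 CPM in CAC. CONT1 was far below the other 5 libraries, which overlapped. The log2 fold change was 0.42 (standard error 0.56, 95% interval -0.93 to 1.77, adjusted p = 0.778), and with 1 library left out it ran from -0.0022 without CONT1 to 0.74 without CONT3. Icam1 in CONT1 was 21.3% of the mean of CONT2 and CONT3. The log2 ratio of Icam1 to Dpp4 in CPM, which sets a committed against an interstitial marker within a library, was -1.08, 0.10 and 0.59 in CONT and 0.75, 0.08 and 1.68 in CAC, and the groups overlapped. Endothelial cells carry Icam1 too, and their 8 markers had a median log2 fold change of -0.09 with 0 past an unadjusted p of 0.05 (Egfl7 -1.31, Pecam1 0.54, Tie1 -0.32). Without CONT1 the median was 0.35 and 3 of the 8 were higher, and Egfl7 was at 0.04, Pecam1 at 0.81 and Tie1 at 0.25. The 9 counter-receptors and related adhesion genes of ICAM-1 held 0 past that threshold as well, with a median of -0.05 (Icam2 -0.86, Ezr -1.42, Selp 1.42), and 1 lower with a median of -0.33 without CONT1. Icam2 was at -0.33 without CONT1, Ezr at -0.43 without CONT3 and Selp at 0.62 without CAC3.

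Of 9 further genes of committed preadipocytes, 0 were higher (6.31% of all genes) and 1 was lower (6.95%) at an unadjusted p under 0.05. Their median was -0.48, and without CONT1 the counts were the same and the median was -0.23. Col15a1, a basement membrane collagen, measured 272, 485 and 451 CPM in CONT and 187, 35.1 and 32.2 CPM in CAC (log2 fold change -2.25, adjusted p = 0.305). It ran from -3.52 without CAC1 to -1.85 without CAC3. Zfp423 and Ebf1, transcription factors of the adipocyte lineage, gave -0.48 (-0.26 without CAC3) and -0.58 (-0.23 without CONT1). Among 6 genes of the CD142+ regulatory progenitors, 1 was higher and 2 were lower, with a median of 0.02 (1 and 1, and -0.14, without CONT1): Fmo2, a flavin monooxygenase, measured 138, 102 and 97.8 CPM in CONT and 246, 329 and 310 CPM in CAC (log2 fold change 1.39, adjusted p = 0.215), whereas Gdf10 gave -1.20 and Clec11a -1.12.

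The PDGF receptors showed no difference beyond the spread of the libraries. Pdgfra (ENSMUSG00000029231, chr5:75152292-75198215, plus strand) measured 20.7, 80.4 and 149 CPM in CONT and 86.4, 93.9 and 57.6 CPM in CAC. The CONT libraries spanned 7.20-fold and enclosed all 3 CAC libraries, which spanned 1.63-fold. The log2 fold change was -0.07 (standard error 0.63, 95% interval -1.59 to 1.45, adjusted p = 0.975), so a change of more than 2-fold either way was within the interval. It was -0.52 without CONT1, the lowest library, and 0.66 without CONT3, the highest. Pdgfrb (chr18:61045150-61085061, plus strand) was the steadiest of the 10, at 82.5, 108 and 102 CPM in CONT and 91.2, 118 and 84.7 CPM in CAC. Its log2 fold change was 0.01 (standard error 0.21, 95% interval -0.49 to 0.51, adjusted p = 0.993). The log2 ratio of Pdgfra to Pdgfrb was -1.995, -0.42 and 0.55 in CONT and -0.08, -0.33 and -0.56 in CAC, and the CAC ratios lay within the CONT range.

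Mural cells, the other source of Pdgfrb, had markers in both directions. Of 8, 2 were lower at an unadjusted p under 0.05 and 0 higher, the median being 0.17, and without CONT1 2 were lower and 1 higher, with a median of -0.18; Cspg4 (NG2) measured 36.8, 78.2 and 65.9 CPM in CONT and 29.7, 24.6 and 21.9 CPM in CAC (-1.25, adjusted p = 0.242), Rgs5 gave -0.66, and Abcc9, a channel subunit of pericytes, 0.88 (0.53 without CONT1). Their summed level was 1182 to 1406 CPM in CONT and 1000.2 to 1570 CPM in CAC. Among the 6 ligands of the receptors and their processing enzymes, 1 was lower and 0 higher, with a median of -0.31 (2 lower, and -0.15, without CONT1). Pdgfa, which signals mainly through PDGFRA, measured 44.9, 19.0 and 16.5 CPM in CONT and 11.3, 9.24 and 8.68 CPM in CAC (log2 fold change -1.46, standard error 0.42, adjusted p = 0.275), and all CAC libraries lay below all CONT libraries. CONT1 was its highest library, and without it the value was -0.85. Pdgfb gave -0.52, but 0.0064 without CONT1, and Plat, the protease that activates PDGF-CC, -0.54 (-0.89 to -0.25 with 1 library left out).

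The matrix genes differed from each other in direction. Dcn (decorin, a small leucine-rich proteoglycan that binds collagen fibrils and TGF-beta, chr10:97479609-97518143, plus strand) measured 973, 780 and 824 CPM in CONT and 1297, 1498 and 1099 CPM in CAC. All CAC libraries lay above all CONT libraries. The means were 859 ± 101 and 1298 ± 200 CPM (SD, n = 3 each) and the log2 fold change was 0.60 (standard error 0.27, 95% interval -0.04 to 1.23, adjusted p = 0.395). Without CONT1 it was 0.71 (adjusted p = 0.273). DESeq2 gave an adjusted p of 0.0946 with all libraries and 0.0036 without CONT1, and 0.0577 to 0.330 with any other library left out. Lum (lumican, the neighbouring gene of the same proteoglycan family, chr10:97565128-97572703, plus strand) went the other way, at 47.3, 69.0 and 67.2 CPM in CONT and 36.5, 37.9 and 14.7 CPM in CAC. Every CAC library lay below every CONT library, and CAC3 was the lowest. The means were 61.2 ± 12.02 and 29.7 ± 13.1 CPM and the log2 fold change was -1.04 (standard error 0.39, 95% interval -1.97 to -0.12, adjusted p = 0.339). It was -1.18 without CONT1, -0.95 without CONT3 and -0.71 without CAC3; in edgeR's test its unadjusted p was 0.0321 with all libraries, 0.0826 without CONT2, 0.0945 without CONT3 and 0.0507 without CAC1.

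Set against each other within a library, the log2 ratio of Dcn to Lum in CPM was 4.36, 3.50 and 3.62 in CONT and 5.15, 5.30 and 6.23 in CAC. The means were 3.83 ± 0.47 and 5.56 ± 0.58 (SD, n = 3 each), a difference of 1.74, and the groups did not overlap. Each CAC library lay above every CONT library for Dcn and below every one for Lum. The separation of the ratio was therefore fixed in advance and adds nothing to the 2 genes. An exact two-sided permutation test of 3 against 3 cannot give a p below 0.1, and the pair was chosen with its values known, so no test is given. This ratio does not depend on the scaling between libraries.

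**Figure D3:**
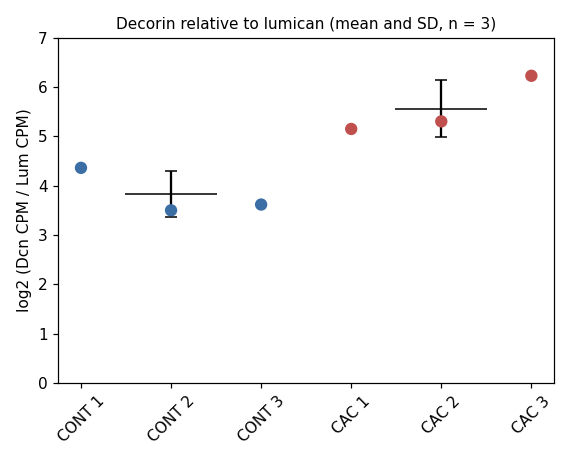
Log2 ratio of Dcn to Lum in CPM in each library, CONT in blue and CAC in red, with the mean and SD of each group (n = 3). The CONT libraries lie between 3.50 and 4.36 and the CAC libraries between 5.15 and 6.23.

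Decorin and lumican have relatives among the small leucine-rich proteoglycans. Of 14 others listed, 13 were tested (Kera, a corneal member, was at 0 reads in every library); 10 had negative and 3 positive fold changes, with a median of -0.48, where 54.1% of all genes were negative. At an unadjusted p under 0.05, 1 was lower and 1 higher: Aspn (asporin) measured 29.7, 42.6 and 35.9 CPM in CONT and 22.3, 28.2 and 19.1 CPM in CAC (-0.64, adjusted p = 0.334), and Tsku (tsukushi, which is also made by liver and fat as a secreted factor) 4.28, 13.3 and 10.6 CPM in CONT and 7.93, 32.5 and 67.4 CPM in CAC (1.93, adjusted p = 0.368; 1.11 without CAC3). Bgn (biglycan), the closest relative of decorin, gave -0.70 (adjusted p = 0.379). Without CONT1, 4 were lower and 0 higher, with a median of -0.57.

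Fn1 (fibronectin, chr1:71585520-71653200, minus strand) measured 95.6, 411 and 613 CPM in CONT and 485, 213 and 220 CPM in CAC. Both groups were wide and they overlapped, with CONT1 lowest and CONT3 highest. The means were 373 ± 261 and 306 ± 155 CPM and the log2 fold change was -0.29 (standard error 0.68, 95% interval -1.91 to 1.33, adjusted p = 0.885). It was -0.73 without CONT1, -0.72 without CAC1, 0.29 without CONT3, and -0.07 and -0.09 without CAC2 and CAC3. Macrophages also make fibronectin, and their 8 markers followed a similar order among the CONT libraries, with sums of 678, 1824 and 1858 CPM in CONT1 to CONT3 and 1558, 911 and 1049 CPM in CAC1 to CAC3; 1 marker was higher (Mertk 1.37) and 1 lower (C1qa -1.01) at an unadjusted p under 0.05, Adgre1 gave -1.17, and the median was -0.44. Without CONT1 the median was -0.75, with 1 higher and 4 lower, and the part of these cells in the Fn1 level was not tested. Of 9 fibronectin receptors and partners 2 were higher and 0 lower, with a median of 0.12 (2 and 1, and 0.04, without CONT1). Itgb3, the beta-3 integrin chain, measured 6.15, 8.06 and 7.37 CPM in CONT and 15.1, 13.4 and 20.7 CPM in CAC (log2 fold change 1.19, adjusted p = 0.233), and Sdc4 (syndecan-4) 41.3, 52.3 and 38.9 CPM in CONT and 72.9, 77.4 and 72.9 CPM in CAC (0.75, adjusted p = 0.238). Tgm2, which cross-links fibronectin, gave 0.22.

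General fibroblast genes share a source with the 10 members. Of 14 tested, 13 had a negative log2 fold change and the median was -0.86 (-0.85 without CONT1), against 54.1% negative and -0.06 over all genes. At an unadjusted p under 0.05, 7 were lower (6.95% of all genes) and 1 higher (6.31%). Without CONT1, 5 were lower (8.28% of all genes) and 0 higher. The list was chosen with earlier results of these data known. Pcolce, which enhances the processing of procollagen, measured 65.4, 66.5 and 52.9 CPM in CONT and 30.9, 28.8 and 32.5 CPM in CAC (log2 fold change -1.003, standard error 0.17, adjusted p = 0.215). Thy1 (CD90, a stromal surface antigen) gave -1.22 (adjusted p = 0.231) and Fstl1 -1.10 (adjusted p = 0.305). The list's summed level was 9635 to 10868 CPM in CONT, whereas it was 12257 CPM in CAC1, 5334 in CAC2 and 3410 in CAC3, and Gsn (gelsolin), named after its values were seen, made up most of it at 9515, 3960 and 2354 CPM in CAC1 to CAC3. Dcn, at 0.60, lay on the other side of 0 from 13 of these 14 genes.

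**Figure D4:**
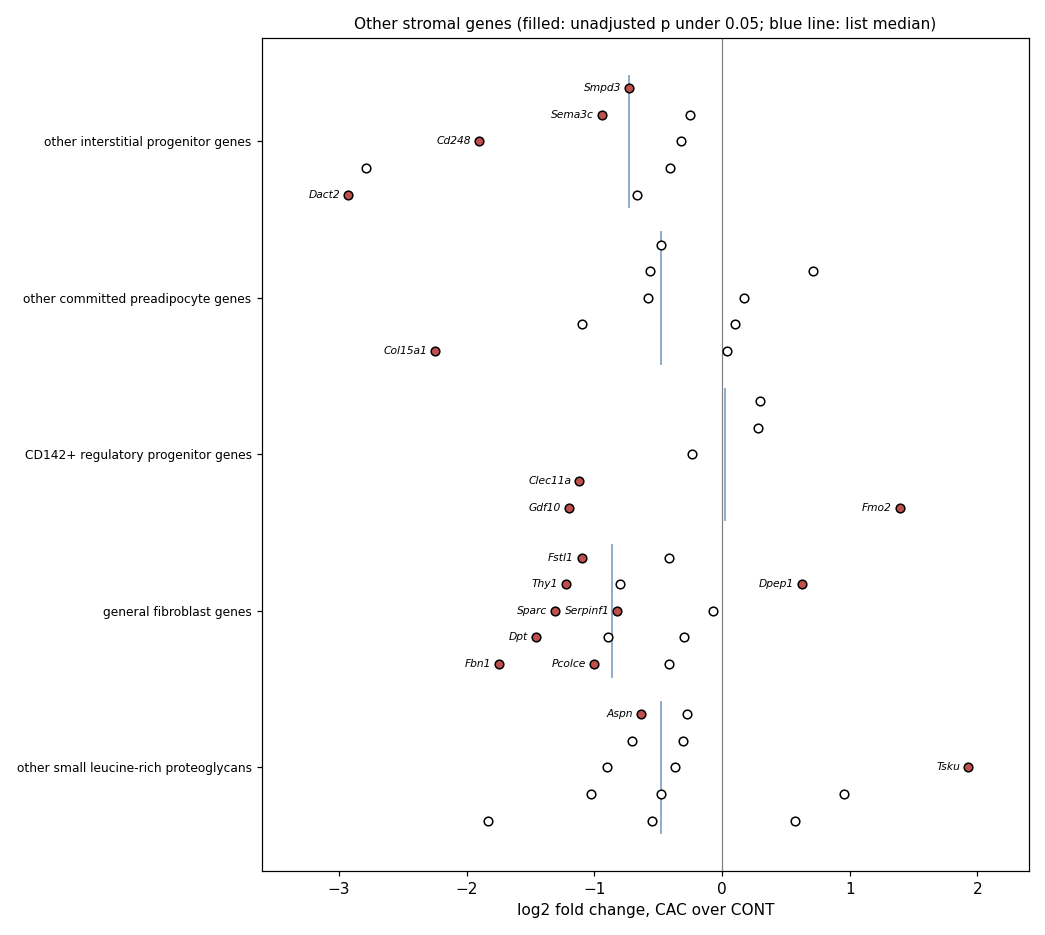
Log2 fold changes of CAC against CONT for 5 lists of other stromal genes, 1 point per gene tested, spread vertically within a list for legibility. Filled points have an unadjusted p under 0.05 and the blue line is the list median; all 9 interstitial progenitor genes (median -0.73) and 13 of 14 general fibroblast genes (median -0.86) lie below 0, and the CD142+ progenitor genes (median 0.02) on both sides.

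Markers of other cells that the tissue could hold were set beside these values. The 9 adipocyte markers summed to 21374 to 51469 CPM in CONT and 34826 to 45841 CPM in CAC, with 1 higher at an unadjusted p under 0.05 (Pnpla2, the lipase ATGL, 1.36), a median of 0.09 (2 higher, and 0.18, without CONT1), and 0.83 for Cfd and 0.53 for Cidec (1.43 and 0.86 without CONT1). Of 8 mesothelial markers, 1 was higher (Lrrn4 0.70) and 0 without CONT1, where the median went from -0.34 to 0.12, with Msln at -0.76 (-0.27 without CONT1), Gpm6a at 0.39 (0.07 without CAC2) and sums of 210 to 227 CPM in CONT and 106 to 278 CPM in CAC. The 8 T cell markers were low, at sums of 12.97 to 20.1 CPM in CONT and 9.67 to 14.2 CPM in CAC. Of these, 0 passed that threshold (Cd4 -1.28, Cd3g -0.92, Trac -0.54), and 1 was lower without CONT1. Cd3g was at -0.59 without CONT2. Of 6 B cell markers 2 were lower (Cd79b -1.57, Blk -1.26; Cd79a -1.09) and 0 without CONT1, with sums of 14.3 to 39.7 and 5.40 to 11.6 CPM. Of 6 neutrophil markers 4 were higher (6.31% of all genes), with a median of 4.04. Without CONT1 5 were higher (15.6% of all genes in either direction), with a median of 3.59. Their sum was 14.8 to 92.8 CPM in CONT and 179.7 to 1117 CPM in CAC, highest in CAC3. CAC3 was the lowest library for 3 of the 10 members (Lum, Dpp4 and Pi16) and for Cd248, but the highest for Icam1. Retnlg measured 0.178, 1.01 and 3.30 CPM in CONT and 14.5, 27.7 and 68.2 CPM in CAC, and S100a9 gave a log2 fold change of 4.09. The single epididymis marker that was tested, Adam7, measured 62.6, 2.41 and 1582 CPM in CONT and at most 0.0755 CPM in CAC. The part of these cells in the levels of the 10 genes was not tested.

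Genes that respond to 2 signals were described beside the members. All 7 glucocorticoid-induced genes had positive fold changes and 5 were higher at an unadjusted p under 0.05 (6.31% of all genes), with a median of 1.53. Without CONT1 all 7 were higher at that threshold (15.6% of all genes in either direction), with a median of 1.47. Fkbp5, a chaperone that is induced by the glucocorticoid receptor, measured 120, 88.9 and 136 CPM in CONT and 663, 606 and 622 CPM in CAC (log2 fold change 2.45, standard error 0.25, adjusted p = 0.127, the smallest of all genes and shared by 14). Zbtb16 gave 2.17 (adjusted p = 0.223) and Per1 1.43 (adjusted p = 0.287). Of 7 NF-kappaB-induced genes, a group to which Icam1 also belongs, 1 was higher and 1 lower, with a median of 0.10 (1 and 0, and -0.19, without CONT1): Nfkbia measured 103, 64.7 and 80.1 CPM in CONT and 180, 135 and 215 CPM in CAC (1.097, adjusted p = 0.242), Relb gave -0.60 (-0.38 without CAC1) and Tnf -0.96 (-0.60 without CAC1).

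CONT1 was not low for all members alike. As a share of the mean of CONT2 and CONT3, its level was 18.0% for Pdgfra, 18.7% for Fn1 and 21.3% for Icam1, then 41.3% for Cd55, 56.6% for Dpp4, 69.5% for Lum, 78.7% for Pdgfrb and 95.1% for Pi16, and it exceeded that mean for Dcn (121%) and Ly6a (133%). Across the 10 genes the log2 of this share had a Pearson correlation of -0.66 with log2 gene length, and across all genes tested -0.21, as a description of points that share the same 3 libraries. The longest members (Fn1 at 11685 bases, Pdgfra at 10024) were thus the ones lowest in CONT1, but Icam1, at 4360 bases, was as low. Averaged over the 10 genes as standardised log2 CPM, the libraries scored -0.65, 0.64 and 0.46 in CONT and 0.10, 0.05 and -0.60 in CAC. CONT1 was lowest for 5 genes and CAC3 for 3, and CONT2 was highest for 4.

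**Figure D5:**
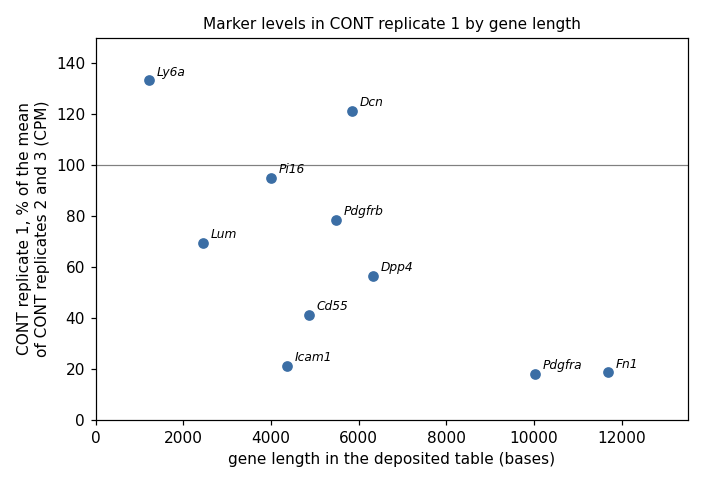
Level in CONT1 as a share of the mean of CONT2 and CONT3, in percent, against gene length in the deposited table in bases, for the 10 genes; the grey line marks equal levels. Pdgfra, Fn1 and Icam1 lie near 18% to 21%, and Dcn and Ly6a above 100%.

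Over the 6 libraries, the genes whose log2 CPM followed that average most closely among 10185 genes with a mean of at least 10 CPM were Itga9 (Pearson r = 0.997), Foxred2 (0.988), Clcn2 (0.985), Dbp (0.985) and Ighv11-2 (0.984), given as a description over 6 points that share library differences. Itga9, an integrin chain, measured 10.5, 31.4 and 27.5 CPM in CONT and 21.0, 20.6 and 11.5 CPM in CAC, low in CONT1 and CAC3. Ighv11-2 measured 0, 90.3 and 22.9 CPM in CONT and 2.55, 3.43 and 0.227 CPM in CAC. It met the mean of 10 CPM only through CONT2 and CONT3, where the members' average was also highest. The 10 genes did not follow 1 pattern among themselves: the same coefficient was 0.89 between Pdgfra and Fn1, 0.89 between Pi16 and Lum and 0.82 between Dpp4 and Pdgfrb, but -0.70 between Pi16 and Dcn.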

How the data were processed

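Poly(A) RNA of eWAT from male C57BL/6 mice was sequenced, in 3 CAC and 3 CONT libraries. The authors aligned reads to the mouse genome with HISAT2 2.0.5 and counted them per gene with featureCounts 1.5.0-p3, per the methods and the submitters' processing notes. The deposited read counts, not normalized, were used for all tests, and the deposited FPKM values of the authors, per gene length and library total, were used only to compare levels between genes and in alternatives. Whether counting used strand is not given in the sources used here. Where genes overlapped a member, the overlapping gene held at most 30 reads over all libraries.

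Groups were taken from the sample labels, and the study describes the libraries as eWAT of separate mice, so p-values measure the spread between these animals. Counts were filtered with filterByExpr, scaled by TMM and fitted with condition only by robust quasi-likelihood in edgeR 4.0.16 (R 4.3.3, prior count 2 for CPM on the log scale). Values of p were adjusted by the Benjamini-Hochberg method over all 17296 genes tested at a threshold of 0.05, and standard errors and intervals came from the same fit. The common dispersion was 0.265. Alternatives were DESeq2 1.42.0, limma 3.58.1 (voom with quality weights, and log2(FPKM + 1) or log2(FPKM + 0.1) with FPKM of at least 0.5 in 3 libraries), other scalings and filters, leaving out each library, and the replicate number as a block; an offset for gene length was added after seeing the data. All count models were tested on simulated data.

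Intervals on read shares cover counting error only. The 3 libraries per group were pairwise different beyond sampling noise, so none was a repeat. Replicate numbers did not pair the samples: the correlation of deviations was 0.31, -0.15 and -0.22.

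Genes named are the 10 members, the up to 3 genes per list with the smallest unadjusted p, and the 5 genes closest to the members' average; Cd55b, Gpx5, Kera, Adipoq and Gsn were named after their values were seen. Further genes were counted in their lists. The list of complement regulators is not reported here. The members and lists were chosen with earlier results of these data known. Promoter sequences are from RefSeq start sites (GRCm38.p6), and the set of promoters used here had an entry for 5 of the 10 members. Gene coordinates are from Ensembl release 94 (GRCm38).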

Additional observations from a re-analysis of the deposited data

How the results depend on the processing

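The 10 genes' log2 fold changes were recomputed under 25 alternatives each. Of these 250 values, 226 kept direction and side of the adjusted threshold. Pi16, Dpp4, Cd55, Ly6a, Dcn and Lum never changed direction, while Pdgfra, Pdgfrb, Icam1 and Fn1 did, and for none of the 10 was the cause of a change tested.

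Pdgfra turned positive without a filter (0.0069), with log2(FPKM + 1) (0.21, with or without a filter) and log2(FPKM + 0.1) (0.31), with the replicate block (0.29), without CONT3 (0.66 in edgeR, 0.71 in DESeq2) and without CAC3 (0.12 and 0.16). Pdgfrb turned negative with upper-quartile scaling (-0.015), the length offset (-0.0059), without CONT1 (-0.08 and -0.040) and without CAC2 (-0.13 and -0.12). Icam1 did so with voom (-0.15) and without CONT1 (-0.0022), and Fn1 turned positive without CONT3 (0.29 and 0.33). With 1 library left out in edgeR, Pdgfra ranged from -0.52 to 0.66, Pdgfrb from -0.13 to 0.11, Icam1 from -0.0022 to 0.74 and Fn1 from -0.73 to 0.29. Voom gave -0.89 for Fn1 and -0.94 for Cd55, against -0.29 and -0.46 in the main fit. Pi16 passed an adjusted p of 0.05 in DESeq2 (-0.83), also without CONT1 (-0.82), CONT3 (-0.91) or CAC2 (-0.98) but not without CONT2, CAC1 or CAC3 (adjusted p 0.164, 0.0805 and 0.118), and Dcn in DESeq2 without CONT1 (0.75).

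Genes past an adjusted p of 0.05 numbered 0 in edgeR (2294 at an unadjusted p under 0.05), 917 in DESeq2, 956 with voom, 8 and 11 with log2(FPKM + 1) and log2(FPKM + 0.1), 2 without the FPKM filter, and 1 with the replicate block, and 0 to 2123 with 1 library left out (in DESeq2 2123, 639 and 888 without CONT1, CONT2 or CONT3 and 1506, 691 and 615 without CAC1, CAC2 or CAC3; in edgeR 0 each time). Members at an unadjusted p under 0.05 numbered 2 (13.3% of all genes), 4 with voom (28.4% of all genes), 3 with DESeq2 (9.73%) and with the 3 FPKM fits (9.09% to 14.3%), and 1 to 4 with 1 library left out: 4 without CONT1 (15.6% of all genes, and 13.2% in DESeq2) and without CAC1 in DESeq2 (10.8%), and 1 in edgeR without CONT2 (9.3%) or without CAC1 (11.7%). The DESeq2 shares of this kind were over 33212 to 33709 genes without a filter on counts, and the 9.09% over 34214. The share of 13.3% was over 17296 filtered genes, so these shares are not on the same set of genes. Members that did not overlap numbered 3 (22.5% of all genes), and 3 to 5 with 1 library left out (26.6% to 37.7%), with 5 without CONT1 (37.7%). The replicate block changed no call of a member. The median over all genes shifted to 0.16 without CONT2 and -0.25 without CAC3 in DESeq2.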
